A study of Mus musculus with 6 samples.

Results

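The thrombospondin genes Thbs1, Thbs2, Thbs3 and Thbs4 and the CCN genes Ccn1, Ccn2, Ccn3, Ccn4 and Ccn5 were followed in the colon of mice with colitis. These 9 of the 36977 genes in the deposited table were found by gene name, and each name matched 1 row. The set was chosen from measured values of the same comparison, in which Thbs4 and Ccn3 stood among the genes with the largest differences, so the levels below are a description, and no p-value is given for a member. RNA-seq was made from colonic tissue of wild-type mice (labelled WT) in 6 libraries, numbered 1, 2 and 4 in each group. The DSS group carries the treatment label DSS alone, for dextran sulfate sodium, a polysaccharide that injures the colonic lining when mice drink it, and the DSS+DCA group carries the label DSS and DCA. DCA is deoxycholic acid, a secondary bile acid that gut bacteria make. The treatment text is worded alike for all libraries and gives 2% DSS for 7 days, then DCA by enema. It does not say what the DSS group received by enema, and the labels name no strain, age or sex. The comparison asked how colonic expression differed with and without DCA in colitis.

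Thrombospondins and CCN proteins are matricellular proteins, which cells secrete into the matrix to change how cells adhere, migrate and signal rather than to build the matrix itself. Thbs1 and Thbs2 carry the thrombospondin type 1 repeats that act on blood vessel growth, and Thbs1 can also activate latent TGF-beta. Thbs3 and Thbs4 lack these repeats and belong to the branch of the family that also holds Comp, the cartilage matrix protein. CCN proteins carry a thrombospondin repeat as one of their modules and bind integrins, and Ccn1 (formerly Cyr61) and Ccn2 (formerly Ctgf, connective tissue growth factor) are standard targets of the mechanosensitive YAP and SRF pathways. Ccn3 was formerly named Nov, and Ccn4 and Ccn5 were formerly the Wnt-induced genes Wisp1 and Wisp2. In the gut wall these genes are best known from muscle, fibroblasts and vessels.

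RefSeq promoter windows (GRCm38.p6) were at hand for 4 members, Thbs2, Thbs3, Thbs4 and Ccn1, and the 250 bases before the start were searched on both strands for GGAATG, the core letters bound by TEAD, the DNA-binding partner of YAP, and for the CArG box of SRF, which is CC, then 6 letters each A or T, then GG. The windows of Thbs4 and Ccn1 are shown because they are the ones that held a core. They lie at chr13:92794819-92795068 on the minus strand for Thbs4 and at chr3:145649986-145650235 on the minus strand for Ccn1. They read 5′ to 3′, with the TEAD core in capitals, here on the opposite strand as CATTCC:
Thbs4: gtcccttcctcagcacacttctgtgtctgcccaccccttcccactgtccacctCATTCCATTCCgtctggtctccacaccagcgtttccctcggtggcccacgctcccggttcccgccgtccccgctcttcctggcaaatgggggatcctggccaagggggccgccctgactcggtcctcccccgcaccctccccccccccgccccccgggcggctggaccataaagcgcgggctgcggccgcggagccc
Ccn1: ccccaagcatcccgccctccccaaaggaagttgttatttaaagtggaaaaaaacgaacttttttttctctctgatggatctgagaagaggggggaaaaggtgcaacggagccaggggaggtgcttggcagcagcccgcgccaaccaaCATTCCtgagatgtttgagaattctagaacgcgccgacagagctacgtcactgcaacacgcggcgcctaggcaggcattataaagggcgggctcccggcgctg
The Thbs4 window held 2 cores that share a base, with first bases at -197 and -192 from the start, and the Ccn1 window held 1 at -103. Of all 32851 promoter windows, 12.6% held at least 1 core and 1.47% held a CArG box. The windows of Thbs2 and Thbs3 held neither, and no CArG box lay in any of the 4. These matches are letters in a window and not shown to be bound.

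The deposited values are FPKM, fragments scaled for transcript length and for the mapped total of the library, so levels of different genes can be set side by side. Sequencing depth is not given, and only 40.6% to 45.2% of low values lay within 0.05 of a whole number of fragments (10% if evenly spread), too few to recover counts. The labels name intestinal epithelial cells, and the libraries also held muscle, nerve and immune transcripts. Summed over 10 smooth muscle markers, none of them at 0 in all libraries, the level ran from 43.5 to 682.7 FPKM in DSS and from 95.7 to 1529 in DSS+DCA. DSS replicate 4 lay close to an average of the other 2 DSS libraries: over 1118 well expressed genes (30 FPKM or more) the median absolute log2 distance from their best weighted mean was 0.048, while these other libraries differed by 0.20 from each other. Mitochondrial transcripts held 46.7% and 47.6% of the summed FPKM in DSS+DCA replicates 4 and 2 and 29.4% to 31.4% in the other libraries. The share of nuclear protein-coding genes was 24.3% and 21.0% in these libraries and 45.0% to 46.2% in the others. The labels do not say whether libraries came from separate mice, so p-values measure the spread between these libraries, which may be technical.

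Thbs4 and Ccn3 were the highest members in DSS and were low in every DSS+DCA library. Thbs4 (GRCm38, chr13:92751590-92794818, minus strand), a thrombospondin of muscle, tendon and injured tissue, measured 22.0, 13.0 and 18.3 FPKM in DSS replicates 1, 2 and 4 and 2.71, 1.97 and 1.58 FPKM in DSS+DCA replicates 1, 2 and 4. The lowest DSS library stood far above the highest DSS+DCA library. The means were 17.8 ± 4.52 and 2.09 ± 0.572 FPKM (SD, n = 3 in each group). Thbs4 was thus 8.52-fold lower with DCA, and 8.39-fold lower when DSS replicate 4 was left out. Leaving out each library in turn gave 7.51-fold to 10.01-fold, and rescaling each library to its protein-coding genes outside the mitochondrial genome gave 6.37-fold. In bulk tissue, fewer cells that make a transcript and less transcript per cell cannot be told apart.

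Ccn3 (chr15:54745702-54754039, plus strand), a growth-restraining CCN protein that binds integrins and Notch1, measured 19.6, 13.0 and 17.3 FPKM in DSS replicates 1, 2 and 4. In DSS+DCA replicates 1, 2 and 4 it measured 3.74, 1.13 and 2.68 FPKM. The groups again did not overlap, and replicate 2 was the lowest library of each group. The means were 16.6 ± 3.33 and 2.52 ± 1.31 FPKM (SD, n = 3 in each group), a 6.62-fold lower level with DCA and 6.48-fold without DSS replicate 4. Leaving out each library in turn gave 5.19-fold to 8.74-fold, and the protein-coding rescaling gave 5.16-fold. The ratio of Thbs4 to Ccn3 was 1.12, 0.999 and 1.06 in DSS replicates 1, 2 and 4, so the genes stood at nearly equal FPKM there. In DSS+DCA it spread from 0.589 in replicate 4 to 1.75 in replicate 2.

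**Figure D1:**
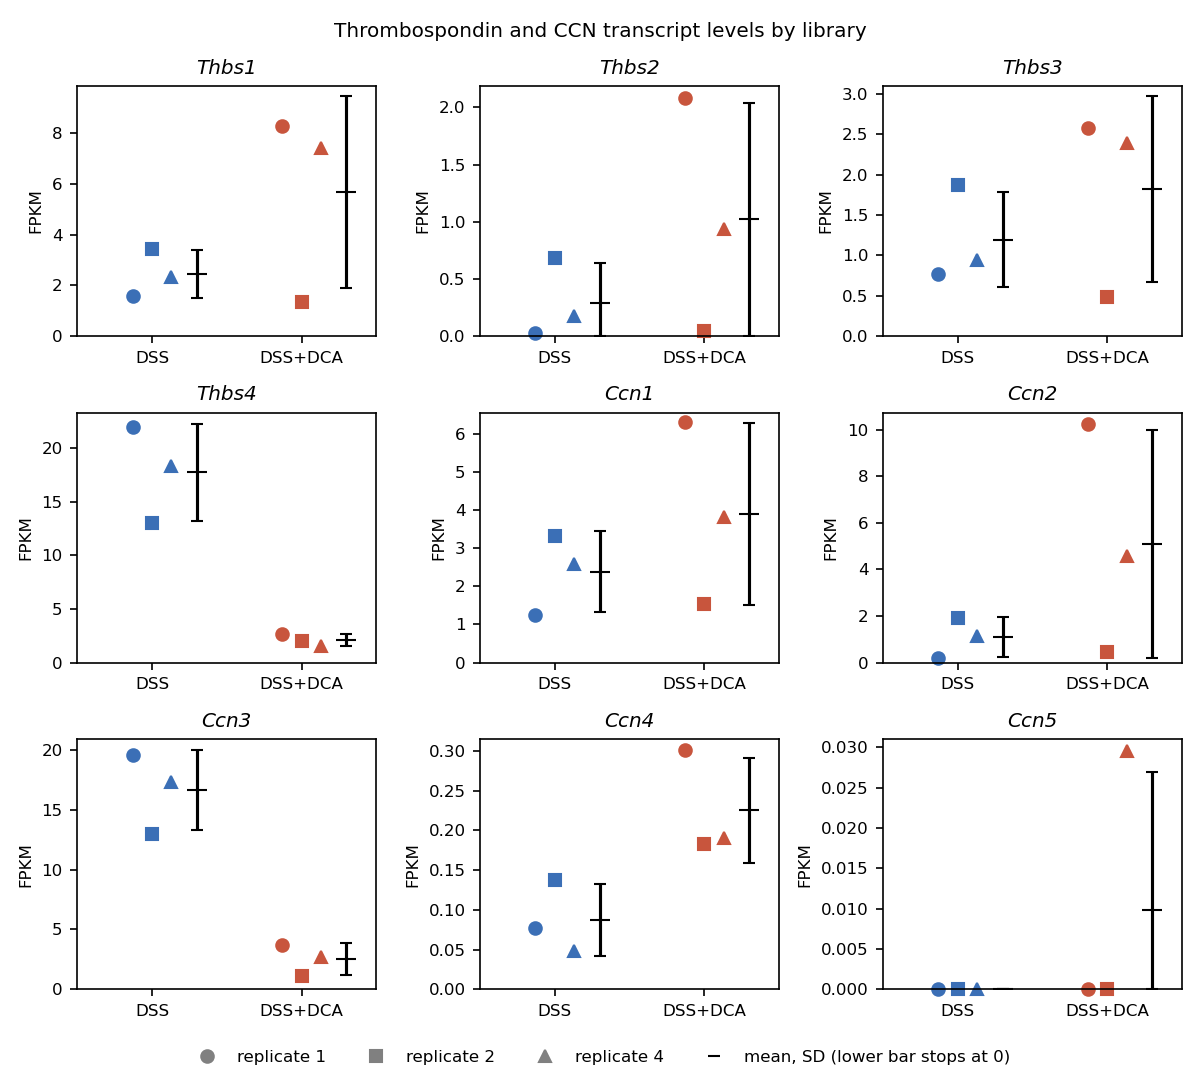
FPKM of the 9 members by library (y axis, own linear scale per gene from 0), with blue points for DSS and red points for DSS+DCA, shapes for replicates and black bars for mean and SD (n = 3 in each group). Thbs4 and Ccn3 stand at 13.0 FPKM or more in all DSS libraries and at 3.74 or less in all DSS+DCA libraries, while Thbs1, Thbs2, Thbs3, Ccn1 and Ccn2 overlap between the groups.

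In the fit over all genes (limma, adjusted p under 0.05), 2 of the 7 members with a mean of at least 0.5 FPKM were called lower, Thbs4 and Ccn3, beside 0.431% of the 14611 genes tested. No member was called higher, beside 0.13% of those genes. These 2 were also the members of the 7 whose libraries did not overlap between the groups and were lower with DCA, which held for 17.8% of all tested genes, and 0 of the 7 lay without overlap in the higher direction, against 5.8% of all tested genes. Neither Thbs4 nor Ccn3 was called with no filter, with the replicate number as a block, or without DSS replicate 1, DSS replicate 4 or DSS+DCA replicate 4. Ccn3 was also not called with a pseudocount of 0.1 or without DSS replicate 2. The members were picked from this same contrast, so nothing is read from these counts. The number of genes called in the whole table was 82 with all libraries, 0 in limma without DSS replicate 4 (1407 at an unadjusted p under 0.05) and 1321 without DSS+DCA replicate 1. The log2 differences of Thbs4 and Ccn3 were -2.56 and -2.35 without DSS replicate 4, against -2.59 and -2.39 with all libraries.

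Thbs1 (chr2:118111876-118127133, plus strand), the thrombospondin stored in platelets and made by stroma, measured 1.58, 3.45 and 2.31 FPKM in DSS replicates 1, 2 and 4. In DSS+DCA replicates 1, 2 and 4 it measured 8.29, 1.34 and 7.41 FPKM. DSS+DCA replicates 1 and 4 were above every DSS library, and DSS+DCA replicate 2 was below them all, so the groups overlapped. The means were 2.45 ± 0.942 and 5.68 ± 3.78 FPKM (SD, n = 3 in each group), a ratio of 2.32 that ranged from 1.79 to 3.21 as each library was left out.

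Thbs2 (chr17:14665500-14694235, minus strand), a fibroblast thrombospondin that restrains vessel growth, measured 0.0282, 0.680 and 0.171 FPKM in DSS replicates 1, 2 and 4. It measured 2.08, 0.0478 and 0.934 FPKM in DSS+DCA replicates 1, 2 and 4. The spread within a group, 24.1-fold in DSS and 43.6-fold in DSS+DCA from lowest to highest, was larger than the ratio of the group means, 3.49. That ratio was 1.67 without DSS+DCA replicate 1 and 10.3 without DSS replicate 2, the ends of its range.

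Thbs3 (chr3:89215180-89226837, plus strand), a widely made relative of Thbs4, measured 0.770, 1.87 and 0.942 FPKM in DSS replicates 1, 2 and 4 and 2.57, 0.488 and 2.39 FPKM in DSS+DCA replicates 1, 2 and 4. The groups overlapped, with DSS+DCA replicate 2 the lowest of all libraries. The ratio of means was 1.52, and leaving out each library gave 1.21 to 2.12. The whole span of Thbs3, 11658 bases in GENCODE M21, lies within the span of Mtx1 on the opposite strand. Mtx1, a mitochondrial import protein, measured 7.58 to 9.71 FPKM over the libraries, and although the library protocol marks strand, its use in counting is not stated, so reads of the overlapping exons may have been assigned to either gene.

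Ccn1 (chr3:145646976-145649981, minus strand), an early growth-response gene of stressed and stretched cells, measured 1.25, 3.32 and 2.59 FPKM in DSS replicates 1, 2 and 4. It measured 6.31, 1.54 and 3.82 FPKM in DSS+DCA replicates 1, 2 and 4. DSS+DCA replicates 1 and 4 were again above all DSS libraries and DSS+DCA replicate 2 was within the DSS range. The means were 2.39 ± 1.05 and 3.89 ± 2.39 FPKM (SD, n = 3 in each group), a ratio of 1.63 with a range of 1.12 to 2.12 over libraries left out.

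Ccn2 (chr10:24595442-24598683, plus strand), a TGF-beta target that marks fibrotic stroma, had the largest ratio of means among the members above the filter whose groups overlapped. It measured 0.204, 1.94 and 1.15 FPKM in DSS replicates 1, 2 and 4. In DSS+DCA replicates 1, 2 and 4 it measured 10.2, 0.464 and 4.57 FPKM. DSS+DCA replicate 2 lay inside the DSS range and the other libraries of its group above it. The means were 1.10 ± 0.868 and 5.09 ± 4.91 FPKM (SD, n = 3 in each group), a ratio of 4.65. That ratio was 2.30 without DSS+DCA replicate 1 and 7.54 without DSS replicate 2, the ends of its range.

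Ccn4 and Ccn5 were below the 0.5 FPKM mean used for testing. Ccn4 (chr15:66891320-66923201, plus strand), a Wnt-responsive stromal gene, measured 0.0765, 0.137 and 0.0483 FPKM in DSS replicates 1, 2 and 4 and 0.302, 0.184 and 0.191 FPKM in DSS+DCA replicates 1, 2 and 4. Its libraries did not overlap, with a ratio of means of 2.58 at levels that rest on few fragments. Ccn5 (chr2:163820861-163833146, plus strand), a CCN protein that lacks the C-terminal module of its relatives, was listed at 0 in 5 libraries and at 0.0295 FPKM in DSS+DCA replicate 4.

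In DSS the order of mean levels was Thbs4, Ccn3, Thbs1, Ccn1, Thbs3, Ccn2, Thbs2, Ccn4, Ccn5. Neighbours in that order overlapped in range, apart from the gap between Ccn3 and Thbs1 and that between Ccn4 and Ccn5. In DSS+DCA the order was Thbs1, Ccn2, Ccn1, Ccn3, Thbs4, Thbs3, Thbs2, Ccn4, Ccn5, and every neighbouring pair down to Thbs2 and Ccn4 overlapped in range. The first 2 places in DSS were thus taken by members that stood 4th and 5th in DSS+DCA.

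The make-up of each family shifted in all DSS+DCA libraries, by a measure in which the scaling of a library cancels. Thbs4 made up 90.3%, 68.4% and 84.2% of the summed thrombospondin FPKM in DSS replicates 1, 2 and 4. Its share was 17.3%, 51.3% and 12.8% in DSS+DCA replicates 1, 2 and 4. Thbs1 took 6.47% to 18.1% of the sum in DSS and 34.8% to 60.1% in DSS+DCA, also without overlap. Thbs3 took 3.16% to 9.85% and 12.7% to 19.5%. Shares within a family add up to a fixed total, so a smaller Thbs4 share raises the others whatever their own level. In DSS+DCA replicate 2, Thbs1 and Thbs3 had larger shares than in any DSS library while their FPKM was below that of every DSS library. The Thbs4 to Thbs1 ratio ran from 3.77 to 14.0 in DSS and from 0.213 to 1.47 in DSS+DCA.

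Among CCN genes, Ccn3 made up 92.7%, 70.7% and 82.1% of the sum in DSS replicates 1, 2 and 4 and 18.2%, 34.1% and 23.7% in DSS+DCA replicates 1, 2 and 4. Ccn1 took 5.93% to 18.04% in DSS and 30.6% to 46.4% in DSS+DCA, and Ccn2 took 0.966% to 10.5% and 14.0% to 49.7%. The summed CCN level itself overlapped between the groups, with 18.4 to 21.1 FPKM in DSS and 20.6, 3.31 and 11.3 FPKM in DSS+DCA replicates 1, 2 and 4. In DSS+DCA replicate 1 the sum was as high as in DSS but was made mainly of Ccn2 and Ccn1 in place of Ccn3. The summed thrombospondin level was 19.0 to 24.4 FPKM in DSS and 3.85 to 15.6 in DSS+DCA.

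**Figure D2:**
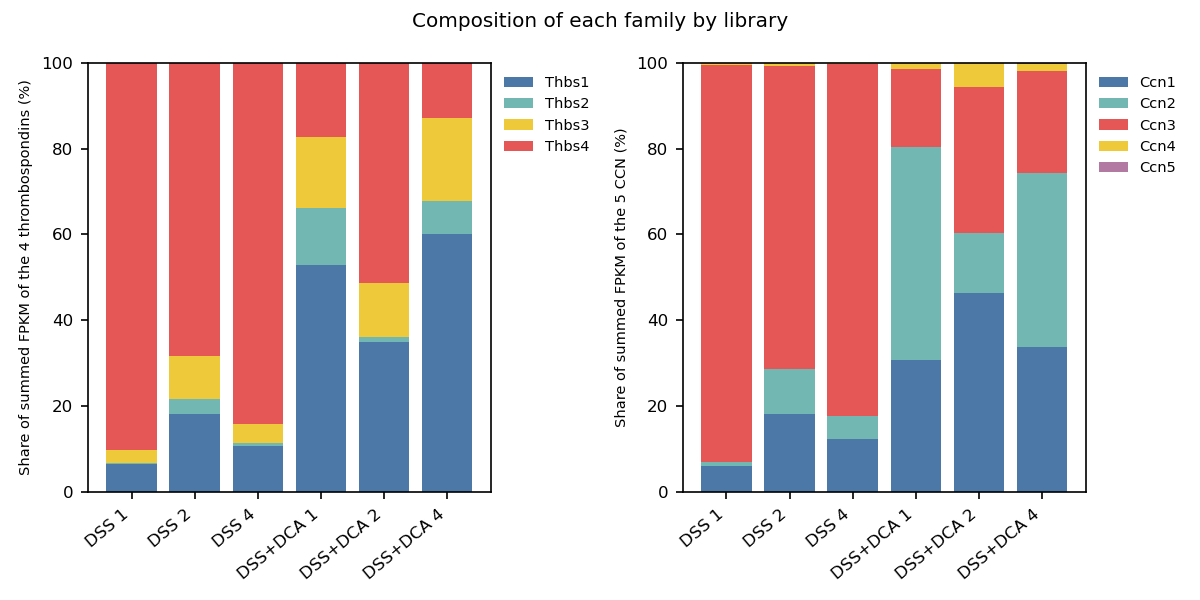
Share of the summed FPKM (y axis, percent) held by each thrombospondin (left) and each CCN gene (right) in the 6 libraries (x axis). Red segments, Thbs4 on the left and Ccn3 on the right, take 68.4% or more of the bar in every DSS library and 51.3% or less in every DSS+DCA library.

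The members split by which tissue markers ordered the libraries the same way. Ccn1, Ccn2 and Thbs2 ranked the 6 libraries exactly as the summed smooth muscle markers did, in all 15 pairs of libraries, and Thbs1 and Thbs3 did so in 14 of 15. The smooth muscle sum was 43.5, 682.7 and 344.5 FPKM in DSS replicates 1, 2 and 4 and 1529, 95.7 and 1079 FPKM in DSS+DCA replicates 1, 2 and 4, and 0 of its 10 markers separated the groups. Myh11, smooth muscle myosin, measured 1.07, 38.7 and 20.6 FPKM in DSS replicates 1, 2 and 4 and 134, 3.43 and 65.0 FPKM in DSS+DCA replicates 1, 2 and 4. Enteric neuron and pericyte markers gave the same pair counts for these 5 members. Fibroblast markers matched Ccn1, Ccn2 and Thbs2 in 14 of 15 pairs and Thbs1 and Thbs3 in 13. Thbs1 and Thbs3 followed the skeletal muscle and Cajal cell markers in 15 of 15. The skeletal muscle sum was low, with DSS replicates 1 and 4 close together at 2.63 and 2.70 FPKM. Its markers Myh1, Myh4 and Tnnt3 stayed at 0.138 FPKM or less in every library. The sources behind these marker lists, fibroblasts included, cannot be told apart. The neuron sum ran from 2.42 to 14.5 FPKM in DSS and from 3.72 to 70.9 in DSS+DCA, and the pericyte sum from 5.98 to 25.8 and from 8.55 to 117. Per 1000 FPKM of smooth muscle markers, Ccn2 held 2.84 to 4.68 FPKM in DSS and 4.23 to 6.70 in DSS+DCA, a far narrower spread than its level. Thbs2 held 0.496 to 0.996 FPKM per 1000 in DSS and 0.499 to 1.36 in DSS+DCA. Thbs1, Thbs3 and Ccn1 did not scale in this way, with 36.2, 17.7 and 28.8 FPKM per 1000 in DSS replicate 1. In the other libraries Thbs1 held 5.05 to 14.0, Thbs3 1.68 to 5.10 and Ccn1 3.54 to 16.0. These orders are descriptions over 6 libraries, 1 of which lay close to the average of a pair, and the part of muscle in the member levels was not tested.

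Thbs4 and Ccn3 were ordered as the epithelial markers instead. Ccn3 ranked the libraries as the summed epithelial markers in 15 of 15 pairs and Thbs4 in 14 of 15, while each followed smooth muscle in 5 and 4 pairs. Of these pairs, 9 join a DSS with a DSS+DCA library and had to match, since these members were chosen for being lower with DCA and the epithelial sum also separated the groups. Within the groups Ccn3 matched in 6 of 6 pairs and Thbs4 in 5 of 6. Enteric glia markers gave the same within-group counts, but most of that sum was a single gene, Erbb3. Gfap, Sox10 and S100b, also on the glia list, ran the other way in DSS, lowest in replicate 1 and highest in replicate 2. The glia match thus cannot show whether the order was particular to epithelium. Leukocyte markers matched Ccn3 in 5 of 6 of the within-group pairs and Thbs4 in 4 of 6. The epithelial sum was 6944, 5602 and 6312 FPKM in DSS replicates 1, 2 and 4 and 5043, 2803 and 2929 FPKM in DSS+DCA replicates 1, 2 and 4, and 5 of its 9 markers were lower without overlap. Per 1000 FPKM of epithelial markers, Thbs4 held 2.32 to 3.17 FPKM in DSS and 0.537 to 0.704 in DSS+DCA, so a gap between the groups was present on that scale as well. Ccn3 held 2.32 to 2.82 and 0.402 to 0.915 FPKM per 1000. DSS+DCA replicate 1 had an epithelial sum close to that of DSS replicate 2 but held 2.71 FPKM of Thbs4 against 13.0. The cell type that makes these transcripts cannot be read from bulk tissue, and the part of epithelial content was not tested.

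**Figure D3:**
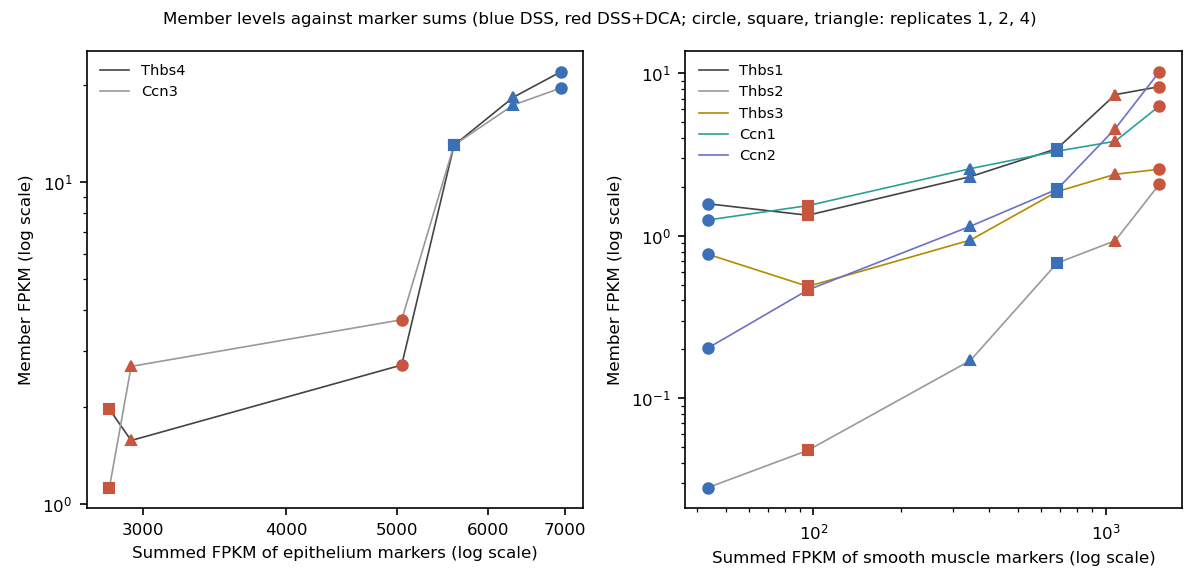
Member FPKM (y axis, log scale) against the summed FPKM of epithelial markers (left, 9 genes) or smooth muscle markers (right, 10 genes; x axes, log scale), blue for DSS, red for DSS+DCA, 1 point per library and a line joining the points of a gene. On the left Thbs4 and Ccn3 drop from 13.0 to 2.71 and 3.74 FPKM between 2 libraries with epithelial sums of 5602 and 5043, and on the right Ccn1, Ccn2 and Thbs2 are higher at each step to a library with more smooth muscle signal, and Thbs1 and Thbs3 at each step but the lowest.

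Other marker lists were checked beside these. Platelet markers, with 5 of 6 in the table, summed to 2.24 to 9.47 FPKM in DSS and 2.91 to 3.89 in DSS+DCA. The highest sum, in DSS replicate 1, was mostly Gp1bb, at 7.55 FPKM there and 0.308 to 0.860 in the other libraries. The part of platelets in the Thbs1 level was not tested. Endothelial markers ran from 11.4 to 12.5 and from 5.61 to 15.9 FPKM. Fibroblast markers ran from 9.54 to 30.5 and from 23.4 to 38.8 FPKM, with 3 of 8 higher without overlap. Among these 3 was Pi16, at 0.122 FPKM or less in every library, where the groups nearly met at 0.0905 FPKM. Skeletal muscle markers were low, at 2.63 to 3.49 and 1.60 to 11.8 FPKM, and leukocyte markers ran from 18.7 to 19.9 and from 24.8 to 53.9 FPKM. Enteric glia (26.6 to 31.3 and 20.6 to 53.1), interstitial cells of Cajal (4.17 to 5.18 and 2.06 to 8.66) and mesothelium (0.339 to 0.555 and 0.262 to 0.790, with 3 of 4 markers in the table) overlapped between the groups in summed FPKM. Most of the glia sum was a single gene, Erbb3, at 22.8 to 30.6 FPKM in DSS and 18.1 to 36.9 in DSS+DCA. That sum is thus a weak measure of glia.

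The genes with profiles most like Thbs4 and Ccn3 were found by the root mean square difference of log2(FPKM + 1), each gene centred on its own mean over the 6 libraries, among 10223 protein-coding genes. Members were not among the genes searched. Thbs4 and Ccn3 were chosen for being lower with DCA, so genes with a like drop come out nearest. No cell source is read from the genes found. Nearest to Thbs4 were Cd177 (0.19 log2 units), Insl5 (0.22), Nat8f4 (0.23), Hoxa9 (0.28) and B3galt5 (0.29). Cd177 is a surface glycoprotein and Insl5 a hormone of colonic enteroendocrine cells. Nearest to Ccn3 were Hoxa10 (0.21), Agr2 (0.30), Pmp22 (0.33), Oas2 (0.33) and Nat8f4 (0.33). Hoxa10 is a homeobox factor of posterior identity, and Agr2 is a disulfide isomerase of mucus-secreting cells. Thbs4 and Ccn3 lay 0.33 log2 units from each other, with 5 searched genes nearer to Thbs4 than Ccn3 was and 3 nearer to Ccn3 than Thbs4 was. Nat8f4, an N-acetyltransferase family gene, was among the nearest of both and measured 6.92 to 8.22 FPKM in DSS and 0.562 to 0.787 in DSS+DCA.

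Receptors of these proteins were read from a fixed list of 19 genes, 17 of them tested. One was called, Cd36, the scavenger receptor through which Thbs1 halts endothelial growth. It measured 0.195, 0.185 and 0.120 FPKM in DSS replicates 1, 2 and 4 and 1.56, 1.41 and 1.25 FPKM in DSS+DCA replicates 1, 2 and 4. All DSS+DCA libraries stood well above all DSS libraries, at levels that were low throughout. Cd36 rose 8.44-fold in mean FPKM (log2 change 1.04 ± 0.14 SE on the log2(FPKM + 1) scale, adjusted p = 0.0347, limma). The call was lost without any one DSS library or DSS+DCA replicate 4 (adjusted p = 0.179, 0.139, 0.212 and 0.107 without DSS replicates 1, 2 and 4 and DSS+DCA replicate 4), while the log2 change in these fits was 1.01 to 1.09. Over 12 alternatives the adjusted p in limma ranged from 0.0201 to 0.222. Cd36 is also a fat cell gene, and the adipocyte markers summed to 9.35 to 11.3 FPKM in DSS and to 22.4, 52.3 and 11.7 in DSS+DCA replicates 1, 2 and 4, with Adipoq, the adiponectin gene, listed at 0 in all DSS libraries and at 1.33, 6.41 and 0.129 FPKM in DSS+DCA replicates 1, 2 and 4. Most of the adipocyte sum in DSS was a single gene, Cidec, at 7.81, 9.36 and 8.77 FPKM in DSS replicates 1, 2 and 4. Cidec measured 13.3, 18.5 and 7.34 FPKM in DSS+DCA replicates 1, 2 and 4. The part of fat tissue in the Cd36 change was not tested. Over all 14611 tested genes, 5777 fitted values were higher and 8834 lower, with a median log2 change of -0.09. These values are the background for each gene list. The other 16 tested receptors did not pass, and the receptor list had 11 lower fitted values and a median log2 change of -0.15. That median was -0.47 without DSS+DCA replicate 1, 0.05 without DSS+DCA replicate 2, 0.01 without DSS+DCA replicate 4 and 0.17 with the protein-coding rescaling.

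The TGF-beta list held 18 genes, 16 of them tested, and none was called by limma, with 2 at an unadjusted p under 0.05. These were Tgfb3, a ligand, at 0.553 ± 0.156 and 1.33 ± 0.631 FPKM (SD, n = 3 in each group, adjusted p = 0.295, limma), and Smad4, the shared signal transducer, at 11.7 ± 1.12 and 8.04 ± 1.94 FPKM (SD, n = 3 in each group, adjusted p = 0.297, limma). The list had 9 higher and 7 lower fitted values and a median log2 change of 0.27, which was -0.04 without DSS+DCA replicate 1, 0.05 without DSS replicate 4, 0.43 without DSS replicate 2 and 0.46 without DSS+DCA replicate 2. Over the 9 members with a mean of at least 2 FPKM it was -0.24.

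Of the 18 YAP and SRF genes, 15 were tested and 0 were called by limma, with 1 at an unadjusted p under 0.05. That gene was Amotl2, a YAP target that feeds back on the pathway. It measured 0.399, 0.258 and 0.441 FPKM in DSS replicates 1, 2 and 4 and 2.50, 1.18 and 2.35 FPKM in DSS+DCA replicates 1, 2 and 4. The groups did not overlap, and the adjusted p was 0.0894 (limma), with a range of 0.0328 to 0.306 over 12 alternatives. It passed with the protein-coding rescaling (adjusted p = 0.0433, limma) and without DSS+DCA replicate 2 (0.0328). Mrtfb, a coactivator of SRF, measured 1.75 ± 0.703 and 2.79 ± 0.372 FPKM (SD, n = 3 in each group, adjusted p = 0.315, limma). The list had 12 higher fitted values and a median log2 change of 0.25, which was 0.06 without DSS+DCA replicate 1, 0.16 without DSS replicate 1 and 0.53 with the protein-coding rescaling.

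Other matricellular proteins, Comp and Ccn6 among 16 listed, had 12 tested members and 0 called by limma, with 2 at an unadjusted p under 0.05. Beside 5777 higher of all 14611 tested genes and their median of -0.09, the list had 11 higher fitted values and a median log2 change of 0.54. That median was 0.28 and 0.98 without DSS replicates 1 and 2, and 0.15, 1.23 and 0.35 without DSS+DCA replicates 1, 2 and 4. Spp1, osteopontin, measured 0.815 ± 0.145 and 0.275 ± 0.211 FPKM (SD, n = 3 in each group, adjusted p = 0.217, limma). Mgp, a calcification inhibitor, measured 6.15 ± 4.97 and 19.2 ± 11.3 FPKM (SD, n = 3 in each group, adjusted p = 0.295, limma). Comp and Ccn6, the family relatives outside the 9, stayed below the 0.5 FPKM mean. Among 21 matrix partners, 18 were tested and 1 was called, Dcn, a collagen-binding proteoglycan that is also on the fibroblast list. It measured 0.794, 1.61 and 1.19 FPKM in DSS replicates 1, 2 and 4 and 4.85, 3.80 and 4.85 FPKM in DSS+DCA replicates 1, 2 and 4. Dcn rose 3.75-fold in mean FPKM (log2 change 1.33 ± 0.20 SE, adjusted p = 0.0486, limma), with a range of 0.0294 to 0.224 over 13 alternatives. The call was lost without DSS replicates 1, 2 and 4 (0.207, 0.112 and 0.218) and without DSS+DCA replicate 4 (0.147), while the log2 change in these fits was 1.20 to 1.47. The list had 12 higher fitted values and a median log2 change of 0.13, which was 0.05 and 0.34 without DSS replicates 1 and 2, 0.60 without DSS+DCA replicate 2 and -0.02 without DSS+DCA replicate 4.

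**Figure D4:**
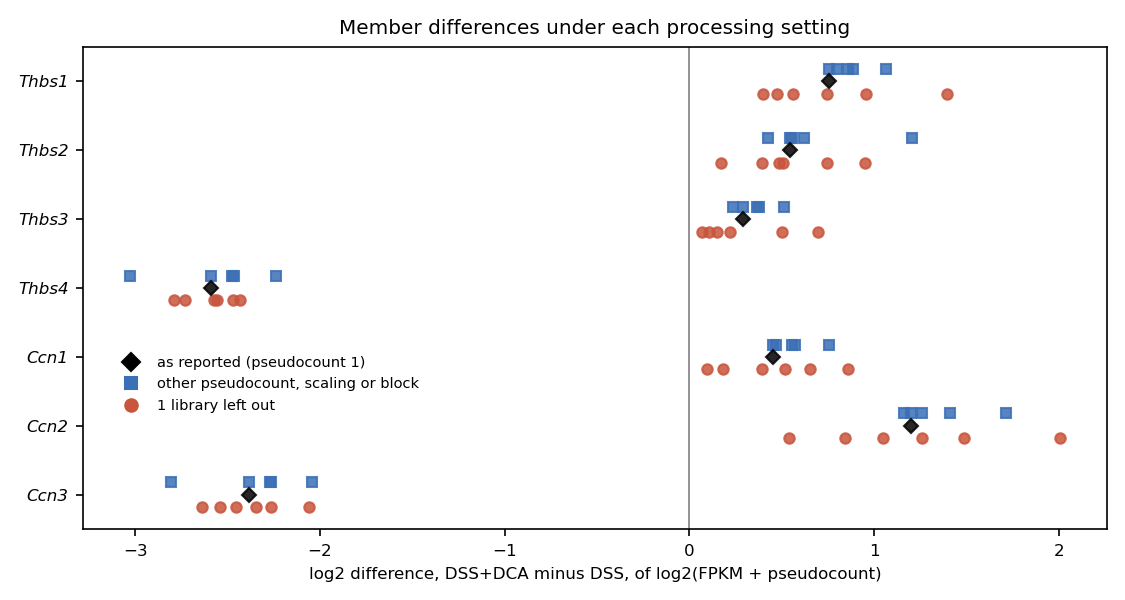
Log2 difference of each of the 7 members with a mean of at least 0.5 FPKM (x axis, DSS+DCA minus DSS on the log2(FPKM + pseudocount) scale) as reported (black), under another pseudocount, scaling or block (blue) and with 1 library left out (red). Thbs4 lies between -3.03 and -2.24 and Thbs3, the member nearest to 0, between 0.07 and 0.70.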

How the data were processed

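In the table the authors deposited, each column holds the FPKM of 1 library, per the file headers. Per the submitters' processing notes, the tools were StringTie 2.1.6, HISAT2 2.2.1, cutadapt 1.9, edgeR and DESeq2, with no role stated; the build and the scaling between libraries are not given in those notes. RNA was poly(A)-selected, and the kit marks strand, per the labels' protocols.

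The fit covered the 14611 genes whose mean FPKM was 0.5 or higher. Their log2(FPKM + 1) values were tested with limma 3.58.1 (R 4.3.3; trended eBayes, two-sided, no covariates), with Benjamini-Hochberg adjustment over all of them and calls at an adjusted p under 0.05. The test was checked on simulated data. Folds are ratios of mean FPKM, and log2 differences understate changes of low genes. Gene positions came from GENCODE M21 (GRCm38), matched by identifier for 36870 genes, and promoters from RefSeq. Planned protein comparisons were not run, since protein sequences were not used here.

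The members, lists and alternatives were chosen with earlier results of these data known. Named genes were the members, up to 4 called genes per list or else the 2 of smallest p, and the 5 protein-coding genes nearest in profile to Thbs4 and to Ccn3, passing over predicted genes. The alternatives varied the pseudocount (0.1), the filter (none, or 2 FPKM), the scaling (TMM-style, quantile, or rescaling to the sum of protein-coding genes outside the mitochondrial genome), the replicate number as a block, and the libraries, each left out in turn.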

Additional observations from a re-analysis of the deposited data

How the results depend on the processing

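Over the alternatives run for them, all 9 log2 member differences kept their sign or stood at 0. A pseudocount of 0.1 moved those of Thbs4 (-2.59 to -3.03), Thbs2 (0.54 to 1.21), Ccn4 (0.17 to 0.81) and Ccn5 (0.01 to 0.12). These moves exceeded the SD between libraries on the log2(FPKM + 1) scale. The spread at a pseudocount of 0.1 was not computed, so the scales compared differ. The protein-coding rescaling moved Thbs4 to -2.24. That rescaling moved the median of all genes from -0.09 to 0.23 and called 122 genes, 77 higher and 45 lower, against 19 and 63. The 82 called genes became 2 with no filter (3770 at an unadjusted p under 0.05), and 0 to 1321 as single libraries were left out, with 0 in limma without DSS replicates 1 or 4 (1498 and 1407 at an unadjusted p under 0.05), 16 without DSS replicate 2, and 1321, 177 and 11 without DSS+DCA replicates 1, 2 and 4.

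With the replicate block 1 gene was called, and 0 in every gene list. Same-numbered libraries deviated from their group means with correlations of -0.14, -0.17 and 0.02, so the numbers were not taken to pair the libraries. Cd36 was not called with no filter or the block and was not tested at a mean of at least 2 FPKM, so that the receptor list held 0 calls, and TMM-style scaling called 2 there (Cd36 and Calr). With libraries left out the receptor list held 0 to 5 calls, the matrix list 0 to 1 and the other matricellular list 0 to 1. The matrix list held 0 with a pseudocount of 0.1, no filter or the block. The YAP and SRF list held 1 call, Amotl2, with the protein-coding rescaling and 0 to 1 with libraries left out. The cause of these shifts was not tested. With depth not given, the levels of Ccn4, Ccn5 and Cd36 carry an unknown counting error.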
